A study of Homo sapiens with 28 samples.

Results

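The genes described here are the protein-coding olfactory receptor (OR) genes of chromosome 11, taken as every protein-coding gene of that chromosome in GENCODE release 44 whose symbol starts with OR and a digit. There were 178 of them among 19970 protein-coding genes of chromosomes 1 to 22 and X. Each gene body was extended by 5 kb on either side and overlapping pieces were merged, which gave 132 stretches with 2.51 Mbp of sequence in all. The data were 10 lists of broad ChIP-seq peaks from U2OS, a human osteosarcoma cell line. H3K36me2 was mapped in wild-type cells, with 2 lists from unirradiated cultures and 2 from cultures that had recovered for 3 h from 20 J/m2 of UV-C. The Flag-tagged carboxy-terminal domain of ASH1L, a histone methyltransferase (CTD), was mapped with anti-Flag antibodies in ASH1L-/- cells transfected with its expression vector, in 3 replicates without UV and 3 at 3 h, and called against ASH1L-/- cells transfected with empty vector. H3K36me2 was called against input DNA. The CTD was a fragment expressed from a vector, whereas the H3K36me2 lists came from cells with their own ASH1L, so assay and cell background cannot be told apart.

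OR genes encode G protein-coupled receptors of the plasma membrane that bind odorants, and each olfactory neuron is known to transcribe a single OR allele while it keeps the others silent in compact chromatin. The protein is encoded by an uninterrupted coding exon, and the genes sit in clusters. Class I receptors, which resemble those of fish (families OR51, OR52 and OR56), lie together on the short arm of chromosome 11, and class II receptors make up the other families. H3K36me2 is a histone mark written by ASH1L and by the NSD enzymes, known from active gene bodies and from broad intergenic regions. U2OS cells are of bone origin, and transcription of OR genes was not measured here.

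Every list held 500000 peaks, with the weakest at a −log10 p between 1.22 and 1.42, so a density is the share of a fixed number of peaks that falls in a region and not an absolute amount. The lists carry no read depth, and the precision of each value therefore rests on the spread between replicates. A peak covered 22 to 24 of the 27 coding exons of ASH1L in the 6 CTD lists and none of them in the 4 H3K36me2 lists, which checks the labels of the construct. The CTD lists of replicate 1 without UV and replicate 3 at 3 h stood apart from the other 4: in the rest of chromosome 11, at the GC content of the OR stretches, they held 158.9 and 156.9 peak centres per Mbp, against 183.1 to 197.5 in the others.

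The OR stretches had a GC content of 37.7%, against 41.6% in the rest of chromosome 11. The share of positions whose 100-base sequence occurs once in the genome, a measure of how much of a region short reads can reach, was 98.3% in the OR stretches and 96.0% in the rest, or 98.2% in the rest without its largest stretch free of protein-coding genes. Peak density and bases covered in the rest of the chromosome were therefore weighted to the GC content of the OR stretches in windows of 10 kb, except where said otherwise. Peak strength and width were not weighted.

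Sequences are shown for the sites where the strongest recurrent peaks fell. Coding starts are shown for genes at both ends of the range of H3K36me2. The part of base composition and of near-identical copies in the values below was not tested. All were read from GRCh38 (hg38), 5′ to 3′, and capitals mark CG dinucleotides. The 3 H3K36me2 sites with a peak in all 4 lists and the highest minimum of fold enrichment lay beside, across or in class I genes. They are shown by the 200 bases around the point shared by most lists, on the plus strand, at chr11:5552032-5552231 (43.5% GC, upstream of OR52H1), chr11:5726871-5727070 (55.5% GC, all inside the coding exon of OR52P1) and chr11:4482298-4482497 (54.0% GC, just upstream of the OR52K1 gene, whose first bases lie inside the same site).
OR52H1 site: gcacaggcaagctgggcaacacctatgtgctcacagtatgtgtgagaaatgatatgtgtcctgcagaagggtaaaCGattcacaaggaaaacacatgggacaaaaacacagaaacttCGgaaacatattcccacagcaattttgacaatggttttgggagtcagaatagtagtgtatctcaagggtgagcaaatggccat
OR52P1 site: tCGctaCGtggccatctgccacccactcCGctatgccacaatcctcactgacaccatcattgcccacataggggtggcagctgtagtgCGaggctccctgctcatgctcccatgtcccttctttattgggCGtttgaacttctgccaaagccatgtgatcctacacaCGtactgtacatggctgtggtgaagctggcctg
OR52K1 site: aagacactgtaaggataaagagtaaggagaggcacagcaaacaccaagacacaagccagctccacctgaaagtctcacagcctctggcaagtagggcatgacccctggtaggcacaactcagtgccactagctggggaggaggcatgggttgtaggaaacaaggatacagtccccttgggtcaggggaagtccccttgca

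For the CTD, the 3 leading sites were taken among those with a peak in 4 or more of the 6 lists. They were at chr11:6169760-6169959 (50.5% GC, inside the coding exon of the class I gene OR52B2), chr11:56738039-56738238 (37.0% GC, within 5 kb of OR9G4) and chr11:59459543-59459742 (42.5% GC, within 5 kb of OR4D6).
OR52B2 site: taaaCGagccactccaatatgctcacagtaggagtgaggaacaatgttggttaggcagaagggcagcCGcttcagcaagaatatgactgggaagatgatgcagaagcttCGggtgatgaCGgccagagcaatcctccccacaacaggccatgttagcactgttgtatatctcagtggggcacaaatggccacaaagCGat
OR9G4 site: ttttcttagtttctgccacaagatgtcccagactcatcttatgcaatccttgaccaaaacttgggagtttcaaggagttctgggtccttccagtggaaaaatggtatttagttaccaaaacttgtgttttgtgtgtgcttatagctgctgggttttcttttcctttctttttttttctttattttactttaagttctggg
OR4D6 site: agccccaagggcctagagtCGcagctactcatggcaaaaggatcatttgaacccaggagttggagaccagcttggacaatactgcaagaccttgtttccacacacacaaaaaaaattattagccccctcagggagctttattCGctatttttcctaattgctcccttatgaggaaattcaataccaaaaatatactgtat

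The first 120 coding bases are shown on the coding strand for the 2 genes with most H3K36me2, OR51D1 (chr11:4639791-4639910, plus strand) and OR51E1 (chr11:4652527-4652646, plus strand), and for 3 genes without an H3K36me2 peak in any list, OR10G4 (chr11:124015575-124015694, plus strand), OR10G9 (chr11:124023013-124023132, plus strand) and OR10G7 (chr11:124038882-124039001, minus strand).
OR51D1: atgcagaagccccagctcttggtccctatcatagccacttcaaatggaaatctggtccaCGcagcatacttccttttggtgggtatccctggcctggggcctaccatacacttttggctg
OR51E1: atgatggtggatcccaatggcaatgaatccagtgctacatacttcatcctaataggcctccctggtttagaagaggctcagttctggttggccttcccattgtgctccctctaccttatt
OR10G4: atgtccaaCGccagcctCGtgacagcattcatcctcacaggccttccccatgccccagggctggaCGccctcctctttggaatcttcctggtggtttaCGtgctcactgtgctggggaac
OR10G9: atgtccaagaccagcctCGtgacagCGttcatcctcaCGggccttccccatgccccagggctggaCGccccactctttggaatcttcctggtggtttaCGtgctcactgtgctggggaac
OR10G7: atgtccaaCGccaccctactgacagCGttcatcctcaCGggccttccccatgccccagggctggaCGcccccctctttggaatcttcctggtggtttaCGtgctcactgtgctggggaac

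Any pair of the 3 OR10G genes shared 114 of these 120 bases, whereas OR51D1 and OR51E1 shared 30. The OR10G coding exons are GC-rich (54.0 to 54.9%) but only 65.6% (OR10G4), 74.2% (OR10G9) and 81.9% (OR10G7) of their positions had a unique 100-base sequence, against 100% in OR51D1 and OR51E1. In OR4A5 and OR4A8, not shown and also without an H3K36me2 peak in any list, this share was 97.9% and 100%. These OR4A genes shared 109 of their first 120 coding bases. Reads from near-identical copies can be lost to the mapping quality filter, so the absence of peaks over the OR10G coding exons is uncertain. Its cause was not tested.

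The first question was whether OR genes held fewer or more peaks than the rest of their chromosome. The OR stretches held slightly fewer H3K36me2 peaks than the rest of chromosome 11 at the same GC content, and about as many CTD peaks. H3K36me2 peak centres numbered 401 and 408 in the unirradiated lists, then 434 and 418 after UV, or 159.9, 162.7, 173.1 and 166.7 per Mbp. The GC-weighted rest held 176.4, 170.9, 190.6 and 189.7 per Mbp in the same lists. The log2 ratio of OR to rest was −0.13 ± 0.05 (SD, n = 4), below 0 in 4 of 4 lists (two-sided exact sign-flip test, p = 0.13, the smallest this test can give with 4 lists). In bases covered, H3K36me2 peaks took up 11.6% ± 0.338 of the OR stretches and 13.5% ± 0.512 of the GC-weighted rest, a log2 ratio of −0.21 ± 0.05 (n = 4, exact p = 0.13). Counting the gene bodies alone turned this around, to +0.20 for peak centres and +0.16 for bases covered, and setting the OR stretches against other protein-coding genes of chromosome 11 brought peak centres to 0.001309.

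**Figure D1:**
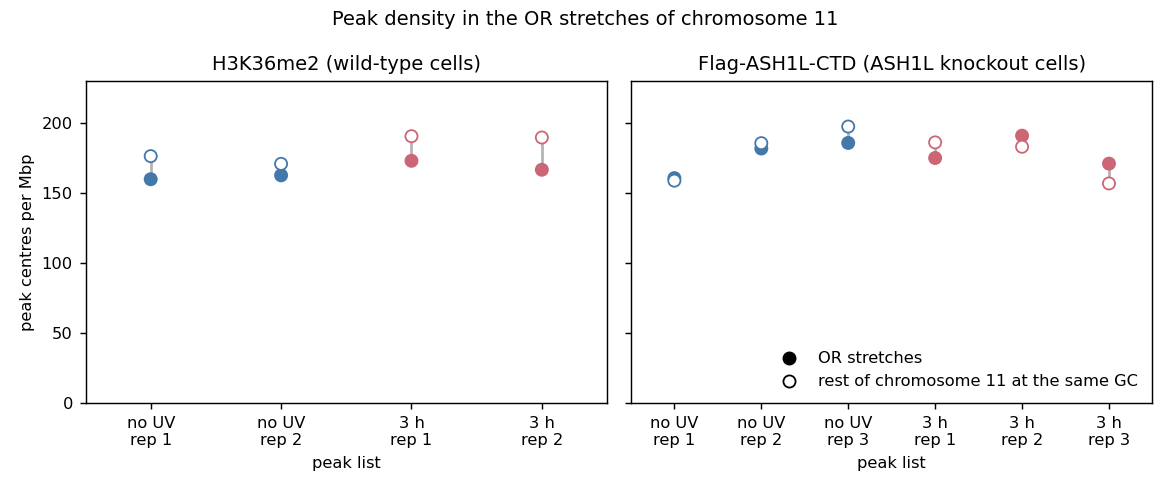
Peak centres per Mbp (y axis, from 0) in the OR stretches (filled) and in the rest of chromosome 11 weighted to the same GC content (open), one pair of points for each list, with blue without UV and red at 3 h. In the 4 H3K36me2 lists the filled point lies below the open one, and in the 6 CTD lists it lies on either side.

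CTD peak centres in the OR stretches numbered 403, 456 and 466 without UV and 439, 479 and 429 at 3 h. That is 160.7, 181.8 and 185.8 per Mbp without UV and 175.1, 191.0 and 171.1 at 3 h, overlapping between conditions. The log2 ratio to the GC-weighted rest was −0.00 ± 0.09 (SD, n = 6) and lay between −0.09 and +0.12 (two-sided exact sign-flip test, p = 1). In bases covered it was −0.04 ± 0.11 (n = 6, exact p = 0.469), from 9.64% ± 0.328 of the OR stretches and 9.94% ± 0.908 of the rest. Without the weighting the OR stretches fell below the rest in 6 of 6 CTD lists, by 0.20 on the log2 scale in peak centres (exact p = 0.031, the smallest this test can give). The OR to rest ratio of H3K36me2 was lower than that of the CTD by 0.13 on the log2 scale (exact two-group permutation test of 4 against 6 lists, p = 0.0286). This difference lost its direction with gene bodies alone, without the weighting, against other protein-coding genes only, and without the OR stretches near the centromere, and missed 0.05 without the CTD lists of replicate 1 without UV and replicate 3 at 3 h (exact permutation test, p = 0.0857). It also missed 0.05 without the H3K36me2 list of replicate 1 without UV, of replicate 1 at 3 h or of replicate 2 at 3 h, left out in turn (exact permutation test, p = 0.0714 each).

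Peaks in the OR stretches were as strong as elsewhere on the chromosome and somewhat narrower. The median fold enrichment, the ratio of ChIP to control signal given by the peak caller, was 1.82 to 1.92 for H3K36me2 peaks in the OR stretches and 1.82 to 1.89 in the rest. The highest fold enrichment of any H3K36me2 peak in the OR stretches was 3.28. The median width was 473 to 566.5 bp for H3K36me2 in the OR stretches and 559 to 631 bp in the rest. A −log10 p of 2 or more was reached by 34.6 to 46.8% of the H3K36me2 peaks in the OR stretches and 39.7 to 44.3% of those in the rest. For the CTD it was reached by 5.70 to 10.4% in the OR stretches and 5.91 to 8.55% in the rest, so CTD peaks were mostly weak in both. A CTD peak with a −log10 p of 3 or more occurred 0 to 2 times per list in the OR stretches, against 23 to 33 times for H3K36me2.

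Peaks were not spread evenly over the OR stretches: they gathered over the coding exon. This exon measured 906 to 1005 bp, with a median of 942 bp, and 174 of the 178 genes had their whole coding sequence in it. H3K36me2 peaks covered 37.6% and 33.4% of the coding sequence without UV and 31.6% and 33.7% at 3 h. The remainder of the OR stretches was covered to 10.0% and 9.99% without UV and to 9.72% and 10.4% at 3 h. Coding sequence was higher by 1.76 on the log2 scale, in 4 of 4 lists (two-sided exact sign-flip test, p = 0.13, the smallest possible). CTD peaks covered 17.5%, 17.3% and 11.3% of the coding sequence without UV and 13.6%, 14.6% and 19.2% at 3 h, against 8.43 to 9.59% of the remainder. The CTD difference was 0.74 on the log2 scale and above 0 in 6 of 6 lists (exact p = 0.031, the smallest possible).

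**Figure D2:**
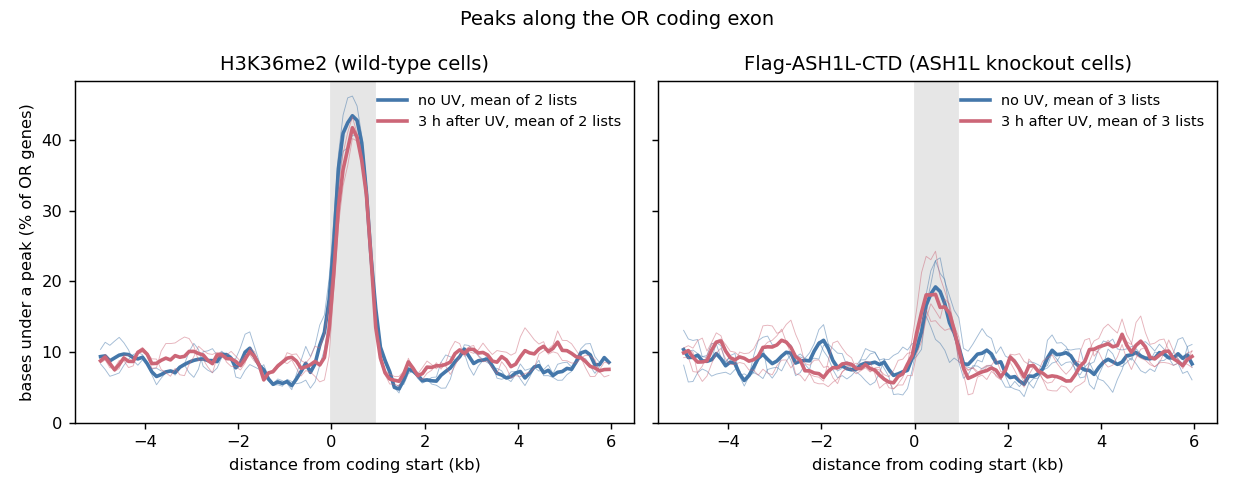
Share of OR genes with a base under a peak (y axis, %) against the distance from the coding start in kb (x axis, downstream to the right), with thin lines for single lists, thick lines for the mean of a condition and the median coding exon shaded. H3K36me2 rises over the coding exon to a mean of 36.3% without UV and 33.4% at 3 h over its first 900 bp, and the CTD to 15.5% and 16.02%.

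The profile along the gene showed how sharply this was bounded. Over the first 900 bp of the coding exon H3K36me2 covered 36.3% ± 3.10 (SD, n = 2) without UV and 33.4% ± 1.57 at 3 h. Over the 1000 bp just upstream it covered 8.97% ± 2.38 and 9.03% ± 2.31, and from −5000 to −2000 bp 8.60% ± 0.466 and 9.12% ± 0.629. A peak touched the coding exon of 97 and 89 OR genes without UV and 86 and 87 at 3 h. In 39 of 178 genes (21.9%) every one of the 4 H3K36me2 lists had a peak on the coding exon, against 10.0% of the 1672 coding exons of 800 to 1100 bp of genes other than OR genes on chromosomes 1 to 22 and X. For the CTD, 1 of 178 coding exons was touched in all 6 lists, that of the class I gene OR52K1 (named after its values were seen), and the share among the other genes was 1.02%. Class I genes had H3K36me2 on the coding exon in every list in 23 of 57 cases (40.4%) and class II genes in 16 of 121 (13.2%). The coding exons of class I were covered to 54.6% ± 3.25 (SD, n = 4) at a median GC content of 47.5%, and those of class II to 24.3% ± 2.43 at 44.99%. The 21 class II genes from OR9Q1 to OR10V1 had 48.4% ± 9.40 of their coding exons covered, and 8 of them (38.1%) were touched in every list.

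The coding exons were also richer in GC than their surroundings, with 46.2% against 37.1% in the remainder of the OR stretches. Set against noncoding windows of 900 bp in the same OR stretches at the same GC content, the coding exons did not differ in the mean over all GC classes: H3K36me2 covered 34.05% ± 2.53 of the coding exons and 33.7% ± 1.46 of such windows (SD, n = 4, log2 difference 0.01, between −0.06 and +0.12, exact p = 0.875). Coverage of the coding exons rose with GC content, from 17.8% ± 4.61 at 40 to 44% GC (48 exons) over 36.9% ± 2.30 at 44 to 48% (62 exons) to 47.4% ± 4.54 at 48 to 52% (45 exons), and was 45.7% ± 7.60 at 52 to 56% (13 exons). Noncoding windows of the OR stretches had 17.6% ± 1.31, 28.2% ± 1.97, 53.5% ± 3.30 and 57.5% ± 7.60 in these classes. The coding exons thus lay above the noncoding windows at 44 to 48% and below them in the classes above. At 40 to 44% both were near windows of the rest of the chromosome, at 17.9% ± 0.628. In the mean over all classes both lay above sequence of the same GC content elsewhere. In the rest of chromosome 11 windows of the same GC content were covered to 23.3% ± 2.19, and the OR coding exons were higher by 0.55 on the log2 scale in 4 of 4 lists (exact p = 0.13). Coding exons of similar length and GC in genes other than OR genes were covered to 13.5% ± 1.49, and the OR coding exons were higher by 1.34 on the log2 scale in 4 of 4 lists (exact p = 0.13). OR coding exons of other chromosomes were covered to 24.9% ± 2.27, and those of chromosome 11 were higher by 0.46 on the log2 scale in 4 of 4 lists (exact p = 0.13). These windows were set up after the coding exon result had been seen.

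For the CTD no difference from sequence of the same GC content on chromosome 11 was detected. The OR coding exons were covered to 15.6% ± 2.94 (SD, n = 6), noncoding windows of the OR stretches at the same GC to 16.8% ± 4.16, and windows of the rest of chromosome 11 to 16.7% ± 3.17. The log2 difference was −0.10 against both (exact sign-flip tests, p = 0.281 and 0.219), with lists on both sides of 0, between −0.41 and +0.07 for the noncoding windows. Against coding exons of other genes (16.2% ± 2.37) it was −0.07 (exact p = 0.375). Only the OR coding exons of other chromosomes differed, at 12.8% ± 1.58, with chromosome 11 higher by 0.27 on the log2 scale in 6 of 6 lists (exact p = 0.031).

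The OR genes fell into 7 clusters when neighbours up to 1 Mb apart were joined, numbered here from the tip of the short arm. Cluster 1 (chr11:4367263-7941708) held 69 genes, including all 57 class I genes. Cluster 2 (chr11:48216810-48489722) held 7 genes and cluster 3 (chr11:49952391-50033794) held 3, all of family OR4, just short of the centromere. Cluster 4 (chr11:54603069-56989843), across the centromere, held 53 genes, and cluster 5 (chr11:58023881-59713845) held 21. Cluster 6 was OR2AT4 alone (chr11:75081753-75096876), and cluster 7 (chr11:123753580-124582942) towards the end of the long arm held 24 class II genes.

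As a whole, class I stretches had more H3K36me2 than class II stretches, but the clusters of class II differed widely. Class I stretches were covered to 16.6% and 15.95% without UV and 15.3% and 16.1% at 3 h, above the GC-weighted rest of the chromosome in all 4 lists (log2 ratio 0.18 ± 0.05, SD, n = 4). Class II stretches were covered to 9.44% and 9.33% without UV and 9.11% and 9.82% at 3 h, below the rest in all 4 lists (−0.48 ± 0.05). The lowest class I list lay above the highest class II list. Cluster 5, of class II genes only, overlapped the range of class I, with 17.1% and 15.97% without UV and 13.7% and 15.9% at 3 h. OR2AT4, the class II gene that forms cluster 6, had 23.9% ± 6.40. The 12 class II genes inside cluster 1, which share the surroundings of the class I genes, were covered to 9.84 to 10.97% and also lay below the rest in 4 of 4 lists (−0.42 ± 0.03). For the CTD the classes were closer, at 10.9% ± 1.07 (n = 6) in class I and 9.01% ± 0.702 in class II, with log2 ratios to the rest of 0.07 ± 0.17 and −0.11 ± 0.15. The class II genes of cluster 1 had 12.2% ± 2.63 of their stretches under a CTD peak.

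**Figure D3:**
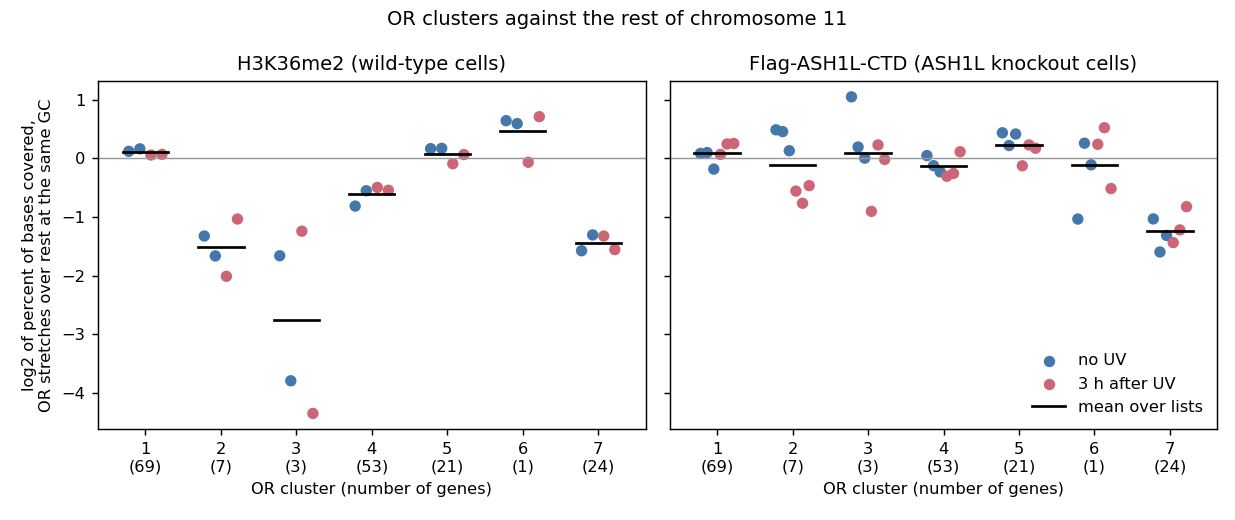
Log2 ratio of the percent of bases covered in the OR stretches of each cluster to that of the GC-weighted rest of chromosome 11 (y axis), by cluster (x axis, with the number of genes), one point for each list and a bar for the mean. Clusters 2, 3, 4 and 7 lie below 0 in all 4 H3K36me2 lists, and cluster 7 in all 6 CTD lists as well.

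Among the clusters, number 7 was lowest by its mean relative to the rest in the CTD lists and among the lowest in the H3K36me2 lists. H3K36me2 covered 4.69% and 5.26% of its stretches without UV and 5.49% and 4.86% at 3 h, a log2 ratio of −1.44 ± 0.15 (n = 4). CTD peaks covered 3.48 to 4.96% of it, a log2 ratio of −1.24 ± 0.28 below the rest in 6 of 6 lists. Cluster 4 was low in H3K36me2 (7.47% ± 0.788, log2 ratio −0.60 ± 0.14) but near the rest in the CTD (7.67% ± 0.603, log2 ratio −0.12 ± 0.17). Clusters 2 and 3 were low in H3K36me2 as well, at 5.20% ± 1.63 and 2.91% ± 2.51, with a wide spread from few genes. Cluster 5 was near the rest in H3K36me2 (15.7% ± 1.40, log2 ratio 0.08 ± 0.12). In the CTD its log2 ratio was 0.23 ± 0.20, above the rest in 5 of 6 lists.

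The surroundings of the low clusters were low in H3K36me2 as well. Sequence up to 1 Mb from cluster 7 and outside OR stretches held 73.9 ± 4.06 H3K36me2 peak centres per Mbp at the GC content of the cluster, and the cluster lay above it by 0.21 ± 0.19 on the log2 scale (n = 4). Around cluster 4 it held 85.6 ± 15.99 per Mbp, and the cluster lay above it by 0.67 ± 0.22. Around cluster 1 it held 159.3 ± 7.16 per Mbp, and the cluster lay above it by 0.39 ± 0.05. For the CTD, cluster 7 lay at −0.04 ± 0.30 (n = 6) of its neighbourhood. The order depended on the measure. In bases covered without GC weighting, cluster 7 lay below its surroundings in every list of both assays. These were covered to 9.57 to 10.5% by H3K36me2 and 7.39 to 11.1% by the CTD. Clusters 1 and 4 lay below their H3K36me2 surroundings without UV (16.2% and 15.9%, and 7.60% and 7.51%). At 3 h they lay above them (12.6% and 13.7%, and 6.99% and 6.65%). The copy number of these regions in U2OS was not measured here, and its part in these values was not tested.

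At the level of single genes, H3K36me2 covered from 0 to 55.6% of gene body plus 5 kb (mean of 4 lists), with a median of 8.24% and quartiles of 4.24% and 15.2%. The median of all protein-coding genes was 7.12%. The spread between genes (SD 9.79 percentage points) exceeded the spread between lists within a gene (median SD 3.97). Of the 178 genes, 121 had H3K36me2 in every list and 8 in none. The shares of all protein-coding genes by these counts are not given. In a single list, 14.6 to 16.9% of the OR genes had no H3K36me2 peak, beside 10.8 to 20.9% of all protein-coding genes. The counts are therefore not read as particular to OR genes. CTD values ran from 0.935 to 21.0% with a median of 8.87%, and 160 of the 178 genes lay below the median of all protein-coding genes, 15.1%. Among genes with 34 to 42% GC the gap was smaller. There the CTD median of the OR genes was 8.11% without UV and 8.03% at 3 h, beside 9.54% and 9.85% for other genes. For the CTD the lists of a gene differed more (median SD 5.43) than the genes did among themselves (SD 4.34), where the first is the spread of single lists and the second that of means over 6 lists.

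**Figure D4:**
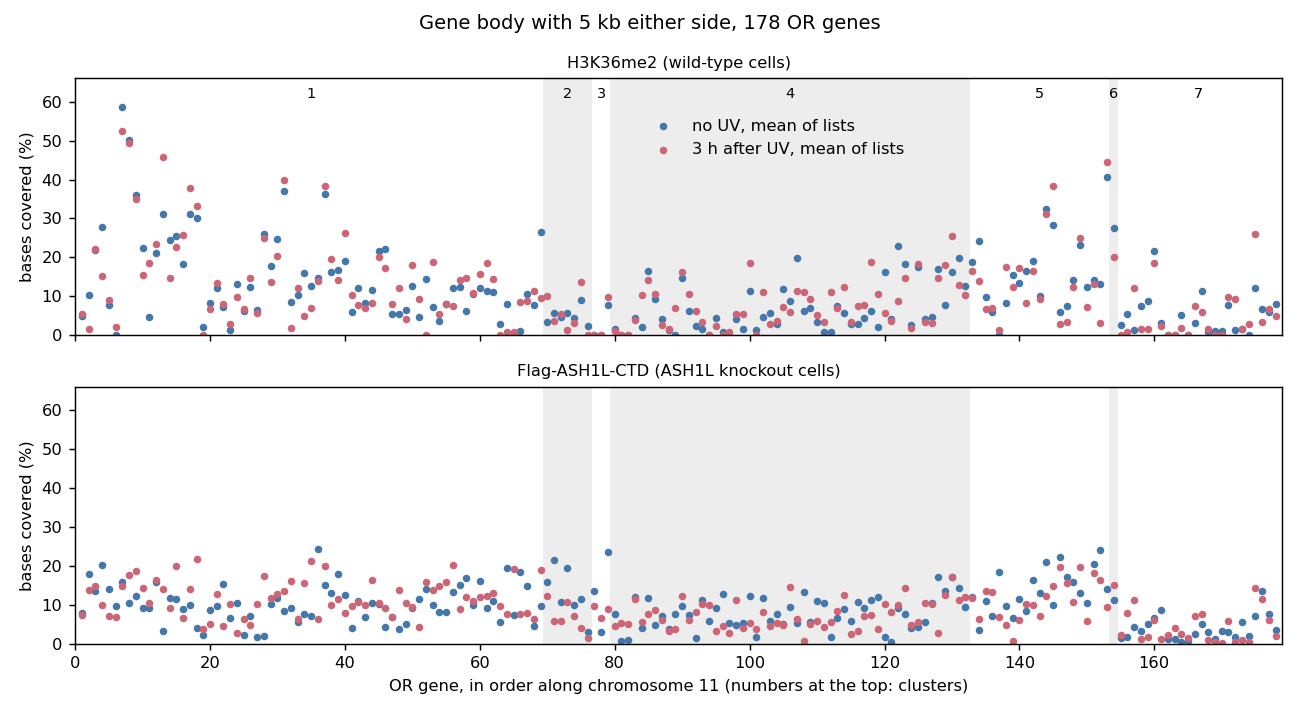
Percent of gene body plus 5 kb under a peak (y axis, from 0) for each OR gene in its order along chromosome 11 (x axis), as the mean of the lists of a condition, with the clusters numbered at the top and every second cluster shaded. H3K36me2 is highest in cluster 1, where OR51D1 reaches 55.6% over all 4 lists, and CTD values stay low throughout.

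Replicates ranked the genes alike for H3K36me2 and less so for the CTD. Spearman's rho between lists of the same condition across the 178 genes was 0.73 and 0.74 for H3K36me2 and 0.26 to 0.39 for the CTD. Between conditions it was 0.67 to 0.68 and 0.11 to 0.34. Genes high in H3K36me2 tended to be high in the CTD (rho 0.53 of the means). Both means rose with the GC content of the gene and its flanks (rho 0.36 and 0.51), which neighbouring genes share. These correlations are across genes, which are not independent replicates.

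The 5 genes with most H3K36me2 were OR51D1, OR51E1, OR10V1, OR51B6 and OR51F2, of which 4 are class I genes of cluster 1. OR51D1 (chr11:4637477-4643060, plus strand) was covered to 59.6% and 57.9% without UV and 50.2% and 54.8% at 3 h, and its whole coding exon lay under a peak in all 4 lists. It stood at the percentile of 99.3 among all protein-coding genes in H3K36me2 and of 51.5 in the CTD. Its neighbour OR51E1 (chr11:4643420-4655488, plus strand), a receptor for fatty acids also described in the prostate, was covered to 45.8% and 54.6% without UV and, at 3 h, to 50.3% and 48.6%. The flanks of these 2 genes overlap, so their values are not independent. The only class II gene of the 5, OR10V1 in cluster 5 (chr11:59712916-59713845, minus strand), had 37.5% and 43.7% without UV and 36.9% and 52.1% at 3 h.

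At the other end, 8 genes had no H3K36me2 peak in any list: OR10G4, OR10G7 and OR10G9 of cluster 7, OR4A5, OR4A8 and OR5L1 of cluster 4, and OR4C12 and OR4C13 of cluster 3. No share over all protein-coding genes is given for this count. OR10G4, a receptor known to respond to guaiacol, had CTD values of 1.08%, 0% and 2.60% without UV and 2.52%, 4.57% and 0% at 3 h. OR4A5 had CTD values of 0%, 0% and 3.30% without UV and, at 3 h, of 4.84%, 1.67% and 8.43%. Over gene body plus 5 kb the share of unique sequence was 96.4% (OR10G4), 98.9% (OR10G7) and 97.8% (OR10G9). No H3K36me2 peak fell in that whole span. The part of repeated sequence in these values was not tested. Of the OR4A5 coding exon, 97.9% was unique, and its GC content was 41.6%.

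The genes with most CTD were OR5AN1, OR4D9 and OR4D11 of cluster 5, OR52H1 of cluster 1 and OR5G3 of cluster 4. OR5AN1 (chr11:59358895-59371714, plus strand), a receptor for musk odorants, was covered to 24.9%, 13.0% and 29.0% without UV and 13.0%, 20.3% and 25.6% at 3 h. Its H3K36me2 values were 7.33% and 4.57% without UV and 3.13% and 2.56% at 3 h. OR4D9 ranged from 9.91 to 40.7% over its CTD lists, and OR5G3 from 1.10 to 28.02%, so their place in the ranking rests on few peaks. OR52H1 was the only one of these 5 with H3K36me2 above 30% in all lists, at 33.4 to 42.7%.

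Of the OR genes known from tissues other than the nose, the 4 fixed by name all lay above the OR median in H3K36me2. OR51E1, OR51E2 and OR51B5 are class I genes of cluster 1, where the median gene was higher as well, at 12.1% ± 0.829 (n = 4). OR51E2 (chr11:4680171-4697854, minus strand), a receptor for propionate described in the prostate, was covered to 37.7% and 34.2% without UV and 38.04% and 32.2% at 3 h. OR51B5, whose gene model spans 202209 bp (chr11:5303444-5505652, minus strand), had 18.9% and 16.6% without UV and 12.7% and 14.7% at 3 h. Its span includes OR51B6, so their values are not independent. OR2AT4 (minus strand), described in skin keratinocytes, had 28.5% and 26.7% without UV and 14.4% and 25.8% at 3 h, and its coding exon lay under a peak in both lists without UV and in neither at 3 h. By the lists alone, OR51B5 and OR2AT4 were lower at 3 h in H3K36me2 without overlap. CTD values of OR51E2, OR51B5 and OR2AT4 lay between 6.51 and 22.6%, with overlap of the conditions in each of them. The fourth, OR51E1, had CTD values of 14.5%, 14.8% and 2.41% without UV and 14.9%, 16.02% and 21.95% at 3 h, without overlap and higher at 3 h by 7.09 percentage points.

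The second question was whether UV changed the peaks in the OR stretches. H3K36me2 peak centres were more numerous in both lists at 3 h than in both without UV, by 0.07 on the log2 scale (two-sided exact permutation test of 2 against 2 lists, p = 0.33, the smallest possible), but bases covered differed by −0.02 (exact p = 1), with 11.9% and 11.6% without UV, then 11.2% and 11.9%. With only the peaks that recurred in another replicate the difference in peak centres was −0.04. The GC-weighted rest of the chromosome moved further in peak centres, from 173.6 ± 3.88 to 190.2 ± 0.657 per Mbp, so the OR to rest ratio was lower at 3 h by 0.06 on the log2 scale (exact p = 0.667). For the CTD the difference at 3 h was 0.03 in peak centres (exact permutation test of 3 against 3 lists, p = 0.8) and −0.03 in bases covered (p = 0.5), and the smallest p of this design is 0.1. The CTD lists at 3 h were called against pooled controls and those without UV against unpooled ones, so calling and UV cannot be told apart in the CTD comparison.

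The lower H3K36me2 at 3 h seen over genes as a whole was not seen in OR genes, and it was small in other genes of their GC content. The median of all protein-coding genes went from 8.84% ± 0.778 (n = 2) without UV to 4.91% ± 0.0310 at 3 h, while the median OR gene went from 7.76% ± 0.135 to 8.26% ± 1.44. A gene was counted as lower when both lists at 3 h lay below both lists without UV, and as higher in the opposite case. By this count 36 of 178 OR genes (20.2%) were lower and 29 (16.3%) were higher, against 47.5% lower and 6.50% higher of all 19970 protein-coding genes. Among genes with 34 to 42% GC, however, 22.9% of the 6756 genes other than OR genes were lower and 14.6% higher, beside 19.9% and 16.8% of the 161 OR genes in that range. In the same range the median of the other genes went from 6.77 to 6.10% and that of the OR genes from 7.94 to 8.61%. With any 1 list left out, which loosens the count, 47 to 59 OR genes were higher and 58 to 62 lower in H3K36me2. The share of all genes under this looser count is not given, so it cannot be read against the shares above. For the CTD, 13 of 178 OR genes (7.30%) were higher and 13 were lower, against 5.22% higher and 2.14% lower of all protein-coding genes. A gene in these CTD counts has p = 0.1 in the two-sided exact permutation test of 3 against 3 lists, the smallest possible. It is not read as changed by UV either. At 34 to 42% GC 7.45% of the OR genes were higher and 7.45% lower for the CTD, beside 5.03% and 3.69% of the other genes.

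The higher and lower OR genes were found in both classes and mostly in the large clusters. For H3K36me2, cluster 4 had 13 higher and 5 lower of 53 genes, cluster 5 had 1 higher and 7 lower of 21, and cluster 7 had 3 higher and 8 lower of 24. Cluster 1 was balanced, with 12 higher and 13 lower of 69. Beside these counts, 6.50% of all protein-coding genes were higher and 47.5% lower. Of genes other than OR genes at 34 to 42% GC, 14.6% were higher and 22.9% lower. Neighbouring genes can share flanks and peaks, so the genes of a cluster are not independent. No test of a difference between clusters was made, and the counts are not read as a gain or loss of any cluster.

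The largest gains of H3K36me2 among genes whose lists did not overlap were those of OR51F2, OR8B4 and OR51F1. These genes, and those named below for losses and for the CTD, were ranked by size and not by a test. None of them is read as changed by UV. OR51F2 (chr11:4821321-4822456, plus strand) had 31.2% and 30.9% without UV and 55.4% and 36.05% at 3 h. OR8B4 of cluster 7 (chr11:124423942-124424871, minus strand) had 12.2% and 11.8% without UV and 27.0% and 25.2% at 3 h. OR51F1 had 2.03% and 7.23% without UV and 21.97% and 15.1% at 3 h. OR51F2 and OR8B4 agreed closely between the lists without UV, while OR51F2 differed between the lists at 3 h by more than its gain over the nearer of them.

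The largest losses were those of OR10A3, OR52L1 and OR5M8. OR10A3 (chr11:7937171-7941708, minus strand) had 33.3% and 19.7% without UV and 7.33% and 11.7% at 3 h. OR52L1 had 19.4% and 9.25% without UV and no peak in either list at 3 h. OR5M8 had 16.05% and 29.7% without UV and 7.14% and 10.4% at 3 h. In all 3 the lists without UV differed from each other by nearly as much as their mean differed from that at 3 h.

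For the CTD the largest gains were those of OR51G1, OR51B4 and OR51I2, all class I genes of cluster 1. OR51G1 had 3.10%, 0% and 9.06% without UV and 15.4%, 26.4% and 23.3% at 3 h, and it was among the genes with much H3K36me2 in every list (25.7 to 34.6%). OR51B4 had 0%, 1.72% and 4.56% without UV and, at 3 h, 11.04%, 25.4% and 15.7%. The largest losses were those of OR52D1, OR4X2 and OR4C45. OR52D1 had 31.0%, 15.8% and 26.6% without UV and 3.00%, 5.70% and 10.1% at 3 h. OR51F2 and OR10A3, which lead the H3K36me2 gains and losses, were both higher at 3 h in the CTD, by 10.9 and 9.21 percentage points. With peaks of a −log10 p of 2 or more, 1 OR gene was higher and 0 were lower for the CTD. Each list held only 26 to 50 such CTD peaks in the OR stretches, so few genes could be counted. The share over all genes at this strength is not given, and the changes above rest mostly on weaker peaks.

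Merging overlapping peaks gave 774 H3K36me2 sites in the OR stretches, of which 144 (18.6%) had a peak in all 4 lists, 35 (4.52%) in both lists at 3 h and neither without UV, and 29 (3.75%) the reverse. In the rest of chromosome 11 these shares were 22.7%, 4.23% and 4.92%, respectively. Among sites at 34 to 42% GC in the surrounding 10 kb they were 18.5%, 4.96% and 3.91% in the OR stretches and 22.4%, 5.39% and 3.39% in the rest, so both differences between the OR stretches and the rest in sites of one condition turned direction with GC content. The site beside OR52H1 (chr11:5551618-5553292) had a fold enrichment of 2.62 and 2.91 without UV and 2.52 and 3.03 at 3 h, with overlap of the conditions. That in OR52P1 (chr11:5726503-5727724) had 2.35 and 2.66 without UV and 2.70 and 2.32 at 3 h. That in OR52K1 (chr11:4481405-4483522) had 2.35 and 2.97 without UV and 2.32 and 2.32 at 3 h. Of 1411 CTD sites, 12 (0.850%) had a peak in all 6 lists, 17 (1.20%) in the 3 lists at 3 h only and 13 (0.921%) in the 3 lists without UV only, against 2.39%, 0.792% and 0.704% of the sites in the rest of chromosome 11. At 34 to 42% GC the shares were 0.982%, 1.06% and 0.573% in the OR stretches and 1.38%, 0.738% and 0.766% in the rest, and here the difference in sites without UV only turned direction. The leading CTD site, in OR52B2 (chr11:6168120-6171919), had a fold enrichment of 1.90 and 2.33 in replicates 2 and 3 without UV, no peak in replicate 1, and 1.89, 1.91 and 2.08 at 3 h.

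Promoters were taken from RefSeq (GRCh38.p14), from 250 bases before to 50 after the gene start, for the 133 OR genes of chromosome 11 with an entry. They were poor in GC (37.9%, against 61.5% for the 15315 protein-coding genes with an entry) and had a median of 1 CG dinucleotide, against 22. The letters TAATTA, the core bound by homeodomain factors such as LHX2, occurred in 31 of 133 OR promoters (23.3%, both strands), against 3.28% of all. TATAAA, the TATA box, occurred in 35.3% against 9.64%. The 176 promoters of OR genes on other chromosomes (39.5% GC) were much the same, with TAATTA in 22.2% and TATAAA in 35.2%. A palindromic EBF motif was searched as well and occurred in 2 of 133 OR promoters and in 1.40% of all. The first 2 motifs are AT-rich letters in AT-rich promoters, and a match is no evidence of binding. H3K36me2 peaks touched 17.3% ± 2.13 (SD, n = 4) of the OR promoters and 11.7% ± 2.81 of all promoters, and CTD peaks 15.4% ± 3.58 (n = 6) against 29.1% ± 7.20. Of the OR promoters of other chromosomes, H3K36me2 peaks touched 12.6% ± 1.88 and CTD peaks 13.4% ± 2.15. These shares were not weighted to GC content. In 9 OR promoters (6.77%) all 4 H3K36me2 lists had a peak, against 4.89% of all promoters and 1.14% of the OR promoters of other chromosomes. Of the 9 on chromosome 11, 7 were in cluster 1, among them OR51E1, OR51G1, OR52H1 and OR52K1.

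Genes of other kinds with a part in olfaction were examined as a list of 15: the transduction cascade (GNAL, ADCY3, CNGA2, CNGA4, CNGB1, ANO2), the mature neuron marker OMP, the receptor chaperones RTP1 and RTP2, and factors of receptor choice (LHX2, LDB1, EBF1, EMX2, ATF5, KDM1A). Their H3K36me2 ranged from 3.60 to 55.9% with a median of 19.5%, above the OR median of 8.24%. At 3 h 10 of the 15 were lower and 0 higher in H3K36me2, beside 47.5% and 6.50% of all genes. The chaperone gene RTP1 was highest, at 55.9% ± 16.7 (n = 4). The demethylase gene KDM1A was at 4.10% ± 2.34. For the CTD, 0 of 15 were higher and 0 lower, beside 5.22% and 2.14% of all genes, so a list this short says little. Their CTD median was 17.4%.

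Other parts of the genome placed these values. OR genes on other chromosomes, 238 in all, had less of both: their stretches were covered to 8.80% ± 0.456 by H3K36me2 (n = 4) and 7.27% ± 0.119 by the CTD (n = 6), with no overlap with the chromosome 11 lists, at 11.6% and 9.64%. The 64 non-OR genes inside the OR clusters, with OR stretches removed, were covered to 14.8% ± 0.305 without UV and 12.8% ± 0.254 at 3 h by H3K36me2 (n = 2), and to 13.8% ± 1.88 by the CTD (n = 6). The other 1139 protein-coding genes of the chromosome were covered to 15.6% ± 0.0577 without UV and 12.9% ± 0.0727 at 3 h by H3K36me2. These levels are not weighted to GC content.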

How the data were processed

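The lists came from ChIP-seq of H3K36me2 (4) and Flag-ASH1L-CTD (6). The authors trimmed reads with Trim Galore 0.6.5 and used bwa mem, version 0.7.17-r1188, for alignment to hg38, from which they had left out chromosome Y. Duplicates, blacklisted regions and alignments with a mapping quality below 30 were dropped. Broad peaks were called for each replicate by macs2 (version 2.2.7.1, p cutoff 0.01). Controls were pooled inputs for H3K36me2 and empty-vector ChIP for the CTD, pooled at 3 h only. The deposited values used are the fold enrichment, a ratio of ChIP to control, and the −log10 p-value of each peak. All peak ends lie inside the GRCh38 chromosomes used here.

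Peak centres and covered bases were counted per list with Python 3.11.15, NumPy 2.4.6 and pandas 2.3.3, with GENCODE release 44. The rest of chromosome 11 was weighted to the OR stretches in GC classes of 2 percentage points over 10-kb windows. Replicates are the biological replicates of the labels, and p-values measure the spread between their lists. Tests were two-sided and exact over lists, with a threshold of 0.05, written with SciPy 1.17.1 and checked on simulated lists. Named genes were the 5 highest and 5 lowest in H3K36me2, the 5 highest in the CTD, the 3 largest changes each way per assay among genes with non-overlapping lists, and 4 genes by name. Named sites were the 3 per assay with the highest minimum of fold enrichment (all 4 H3K36me2 lists, at least 4 CTD lists). The members and lists were chosen with earlier results of these data known. Alternatives covered peak strength, recurrence, flanks, windows, the choice of the rest and leaving out replicates. Amino acid sequences were not used here. The comparison of shared peak sites with the rest of chromosome 11 was added after the data had been seen.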

Additional observations from a re-analysis of the deposited data

Results flagged for a closer look

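The OR to rest log2 ratio of peak density was lower for H3K36me2 than for the CTD by 0.13 (a difference of −0.1337, from means of −0.13 over 4 lists and −0.00 over 6 lists; exact two-group permutation test, p = 0.0286). It was marked for a closer look because the 2 assays differ in a test of the difference itself. All 4 H3K36me2 lists had a negative ratio, and so did 3 of the 6 CTD lists. The assays also differ in cell background and in the control used for calling, and their part in the difference was not tested.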

How the results depend on the processing

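Values are log2 ratios unless stated. The lower H3K36me2 in the OR stretches kept its direction under 17 of 19 alternatives in peak centres and 18 of 19 in bases covered. Without flanks it was 0.1954 and 0.1622 and against other protein-coding genes 0.001309 (peak centres). The CTD ratio in peak centres was 0.163 at a −log10 p of 2 or more, 0.1477 in the top quartile of fold, 0.1379 without flanks, −0.05952 with 20-kb flanks, −0.2003 unweighted, 0.005845 in 5-kb windows and 0.0001213 without OR genes over 100 kb. In bases covered it was 0.085, 0.1748, 0.07969 and, unweighted, −0.3697. H3K36me2 against CTD was −0.1486 for recurring peaks, 0.05749 without flanks, 0.08904 unweighted, 0.1011 against other genes and 0.03943 without OR stretches within 10 Mb of the centromere. After UV, H3K36me2 peak centres were −0.03826 for recurring peaks, bases covered 0.113 at −log10 p of 2 or more and 0.02527 without the long genes, and the ratio to the rest 0.02608 at 2 or more, 0.1826 at 3 or more and 0.09004 unweighted. For the CTD, 20-kb flanks gave −0.04078 in peak centres and −0.003992 relative to the rest, and bases covered were 0.4393 at 2 or more, 0.09781 for recurring peaks and 0.08217 without flanks. CTD coding exons were −0.07225, −0.1046 and −0.095 against other coding exons, windows of the rest and noncoding OR windows at the same GC. Causes were not tested. Gene counts by peak centres were 18 higher and 17 lower for H3K36me2, 4 and 1 for the CTD. At −log10 p of 2 or more 21 were lower for H3K36me2, and 1 higher and 0 lower for the CTD. Without flanks the CTD had 6 and 6, and with 20-kb flanks 5 higher. Leaving out lists gave −0.06544 to 0.02727 for H3K36me2 bases covered after UV, −0.03657 to 0.01676 for the CTD ratio in peak centres, −0.03961 to 0.06517 and −0.05758 to 0.001034 for the CTD after UV (peak centres, bases covered), −0.1549 to −0.09804 for H3K36me2 against CTD, and 0.6486 to 0.8351 for CTD coding exons, where 5 lists cannot pass 0.05. Gene counts then ran from 47 to 59 and 58 to 62 for H3K36me2 and from 19 to 26 and 19 to 25 for the CTD. No share over all protein-coding genes was set beside the gene counts of these alternatives. CTD comparisons at −log10 p of 3 or more had no value, since some lists held no such peak. Alternatives without the long genes, without both CTD lists that stood apart, and against windows or exons at the same GC were chosen after seeing the data. Replicate numbers did not pair the lists (correlation of deviations 0.0096 for H3K36me2, −0.27, 0.11 and −0.44 for the CTD). With the replicate block H3K36me2 peak centres after UV differed by 0.07451 (exact p = 0.5) and the CTD by 0.02503 (exact p = 0.75), and it changed no call.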
